A study of Mus musculus with 89 samples.

Results

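The 8 genes described here, Dnm1, Synrg, Clta, Bin1, Synj1, Itsn1, Ap2a1 and Dnajc6, encode proteins of the clathrin and dynamin endocytosis machinery. They were chosen by name with earlier results of these data known, so their shares set against the whole table are descriptive. All exon skipping events listed for them in both deposited junction tables of mouse nucleus accumbens RNA were taken. An exon skipping event is an exon together with the exon on each side of it, with counts of reads for the form that has the exon and for the form that joins its neighbours directly. The genes held 69 of 27900 events in the table of the HSV libraries, over 46 distinct exons, and 20 of 5608 events in the table of the dCas9-SET2 libraries.

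The labels give 3 HSV groups of 3 RNA libraries each: HSV Set2, HSV R195G (Set2 with the substitution R195G) and HSV GFP. Set2 is a histone H3 lysine methyltransferase and GFP a fluorescent protein. The dCas9-SET2 groups carried this fusion of catalytically dead Cas9 and SET2 with sgRNA SRSF11, named for a splicing factor gene, or with sgRNA NT, and each has 16 runs under 4 sample names. All mice are labelled C57BL/6, wild type and 8 weeks old, and tissue was taken by micro-punch, so each library holds every cell type of the punch. Of the 89 samples, 48 come from chromatin assays (ChIP with its inputs, and CUT&RUN) and were not used here. The tables name no library: the HSV table holds 3 libraries on one side and 2 on the other, called the 3-library and the 2-library set here, and the dCas9-SET2 table lists a first and a second set of runs. No virus or guide was assigned to any set, and the comparisons below are between the sets as listed.

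In clathrin-mediated endocytosis, the AP-2 adaptor and scaffold proteins gather cargo at the plasma membrane, clathrin assembles into a coat, proteins that sense or bend membrane shape the neck, and dynamin cuts the vesicle free. Synaptojanin and auxilin then take part in removing the coat. At nerve terminals this cycle retrieves synaptic vesicle membrane, and many of its proteins are made in neuron-specific forms through alternative exons.

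The inclusion level (PSI) of an event is the share of the form with the exon out of both forms of that event. It is taken from reads divided by the length over which each form can give reads. The same exon can thus have another PSI with other neighbours. Libraries held between 7428974 and 8341849 reads over listed events in the 3-library set, against 8366275 and 8638249 in the 2-library set. Events were tested where a library had 20 reads on average and the rarer form had at least 10 reads in all. This left 46 of the 69 member events, over 26 exons, and of the 23 events left out 19 had a mean PSI above 0.9 in both sets. Of these tested exons, 22 had a length divisible by 3 (84.6%), against 3695 of 7075 exons over the whole table (52.2%), and 6 were 27 nt or shorter (23.1%), against 377 over the whole table (5.33%). These shares are a description without a test.

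Inclusion of 3 of the 46 tested events differed between the HSV sets at an adjusted p below 0.05 in limma, 1 higher and 2 lower in the 3-library set. Over the whole table, 19 of 7754 events (0.245%) passed, 0.0903% higher and 0.155% lower. On simulated data, false calls of this fit exceeded the nominal share. The sets did not overlap in 25 of the 46 member events, 11 higher and 14 lower in the 3-library set, against 28.5% of all tested events (13.4% higher and 15.1% lower). The median absolute PSI difference was 0.0448 in the member events and 0.0309 in all tested events. Events of one gene share reads, so they are not independent of each other. P-values rest mainly on a spread between libraries pooled over all tested events, which may be technical, and little on the spread of the event itself. With weights from reads alone, without a spread between libraries, 13 member events passed, 5 higher and 8 lower, against 3.69% of all events. By the FDR in the authors' deposited table, 16 of the 69 member events passed, all of them among the 46 tested, against 4.87% of all listed events and 12.6% of the tested ones. They lay in 7 of the 8 genes, all except Ap2a1, against 18.9% of all tested genes. Among these were Clta, Itsn1, Bin1 and Dnajc6, in which no event passed in limma. Leaving out any 1 of the 5 libraries left 1 member event past the threshold each time, the Synrg exon described next.

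**Figure D1:**
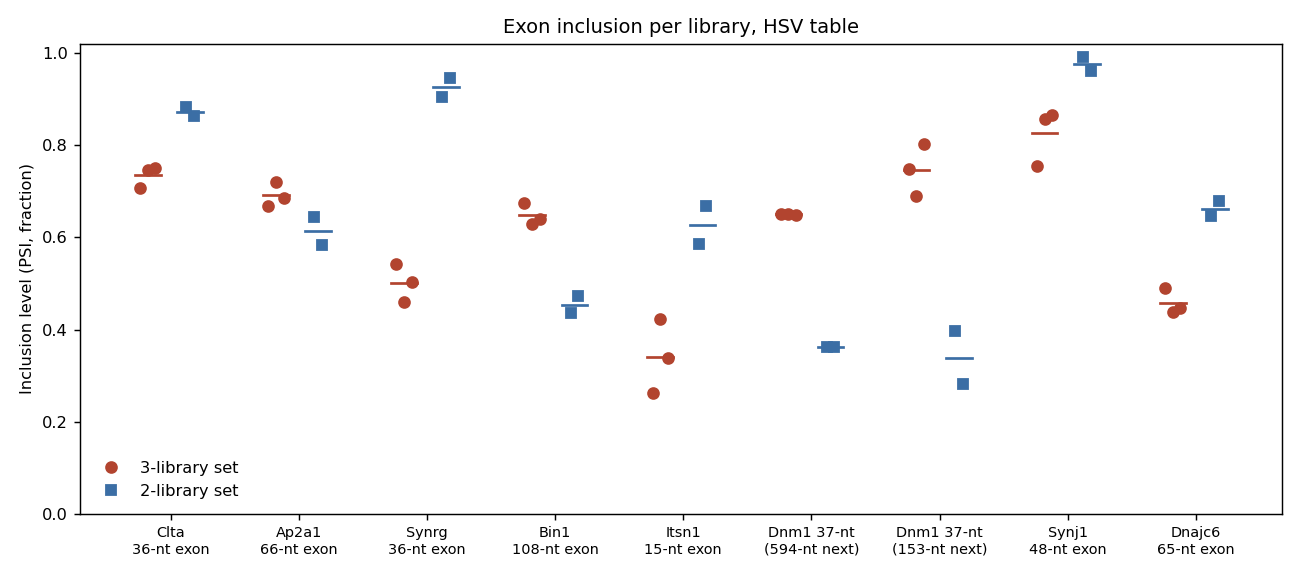
Inclusion level (PSI) in each library for 9 exons or exon and neighbour pairs of the 8 genes. Circles are the 3-library set and squares the 2-library set, and lines are means. The Synrg circles lie between 0.459 and 0.543 and its squares at 0.905 and 0.947.

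Synrg encodes gamma-synergin, a partner of the clathrin adaptor AP-1. Its 36-nt exon (11:83853158-83853193 in the HSV table's coordinates, plus strand) had PSI values of 0.543, 0.459 and 0.503 in the 3-library set, against 0.905 and 0.947 in the 2-library set. The sets were far apart, with a mean PSI difference of -0.424. The junction that skips the exon had 57, 56 and 63 reads in the 3-library set, against 18 and 8 in the 2-library set. Inclusion reads numbered 84, 59 and 79 in the 3-library set, against 213 and 177 in the 2-library set. Inclusion in the 3-library set fell by 2.48 on the logit scale (SE 0.41), with an adjusted p of 0.000362 in limma. The call held without each library in turn, with adjusted p from limma between 0.000183 and 0.0359, and was lost with no weights (adjusted p = 0.298 in limma). Among the other Synrg events, the 303-nt exon had PSI values of 0.0754, 0.117 and 0.135 in the 3-library set, against 0.0336 and 0.0725 in the 2-library set, and the 234-nt exon was also at a low level, between 0.0422 and 0.107 in all libraries. Neither passed, with adjusted p values of 0.426 and 0.609 in limma.

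Clta encodes clathrin light chain a, which is known to carry inserts in neurons. Its 36-nt exon, read where the 54-nt exon before it was present (4:44044272-44044307, plus strand), had PSI values of 0.708, 0.746 and 0.751 in the 3-library set, against 0.883 and 0.863 in the 2-library set. The sets did not overlap, but the difference of -0.138 did not pass (adjusted p = 0.288 in limma). The junction from the 54-nt exon past the 36-nt exon had 240, 192 and 187 reads in the 3-library set, against 110 and 105 in the 2-library set, a ratio of 2.10 relative to library reads. The junction that skips both exons had 421, 369 and 397 reads in the 3-library set, against 346 and 570 in the 2-library set, and the sets overlapped. The junction that skips the 54-nt exon but keeps the 36-nt exon also overlapped, with 170, 131 and 139 reads in the 3-library set, against 206 and 166 in the 2-library set. Inclusion reads of the 36-nt exon after the 54-nt exon numbered 720, 700 and 700 in the 3-library set, against 1030 and 817 in the 2-library set, also without overlap. Of the 3 skipping junctions, the 2 that skip the 54-nt exon overlapped between the sets. The 54-nt exon joined directly to the constant exons on both sides had PSI values of 0.498, 0.474 and 0.442 in the 3-library set, against 0.473 and 0.314 in the 2-library set (adjusted p = 0.767 in limma). The deepest Clta event, a 118-nt exon, was nearly always included, at 0.996 in each library of the 3-library set, against 0.998 and 0.997 in the 2-library set (adjusted p = 0.783 in limma).

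Ap2a1 encodes an alpha subunit of the AP-2 adaptor, for which a longer brain form is known. Its 66-nt exon (7:52158832-52158897, minus strand) had PSI values of 0.669, 0.721 and 0.685 in the 3-library set, against 0.644 and 0.583 in the 2-library set. The sets stood close to each other without overlapping, and the difference of 0.078 did not pass (adjusted p = 0.753 in limma). The exons of the other 3 Ap2a1 events were nearly always or nearly never included, and 1 of these events was tested (adjusted p = 0.851 in limma).

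Itsn1 encodes intersectin 1, a scaffold with SH3 domains that binds dynamin and synaptojanin. Its 15-nt microexon (16:91842873-91842887, plus strand) had PSI values of 0.262, 0.423 and 0.339 in the 3-library set, against 0.585 and 0.668 in the 2-library set. The sets did not overlap, and the mean difference of -0.285 had an adjusted p of 0.191 in limma. Skipping reads numbered 87, 41 and 78 in the 3-library set, against 38 and 28 in the 2-library set, and inclusion reads 34, 33 and 44 in the 3-library set, against 59 and 62 in the 2-library set. This was the only Itsn1 event tested. The other 8 Itsn1 events had too few reads of the rarer form, 7 of them with a mean PSI above 0.9 in both sets.

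Bin1 encodes amphiphysin II, a BAR domain protein that bends membrane, and its brain forms carry alternative exons for a clathrin and AP-2 binding region. Of its 14 tested events none passed, and the sets did not overlap in 6. The 108-nt exon between the 24-nt and 72-nt exons (18:32590404-32590511, plus strand) had PSI values of 0.675, 0.630 and 0.640 in the 3-library set, against 0.435 and 0.472 in the 2-library set (adjusted p = 0.363 in limma). Between the 148-nt and 72-nt exons, the same exon had 0.443, 0.474 and 0.475 in the 3-library set, against 0.393 and 0.268 in the 2-library set (adjusted p = 0.546 in limma). In both of these events it had a higher level in the 3-library set, without overlap. Both count the same reads from the 108-nt to the 72-nt exon, so they are not separate observations. The junction from the 148-nt to the 108-nt exon had only 2, 4 and 3 reads in the 3-library set, against 12 and 3 in the 2-library set. With the 111-nt exon as the following exon instead, the sets overlapped in both events. There it had 0.939, 0.932 and 0.976 in the 3-library set, against 1.00 and 0.934 in the 2-library set after the 24-nt exon (adjusted p = 0.979 in limma). After the 148-nt exon it averaged 0.00857 in the 3-library set, against 0.0283 in the 2-library set (adjusted p = 0.411 in limma). Inclusion reads of this last event numbered 3, 4 and 3 in the 3-library set, against 19 and 3 in the 2-library set. They include every read that joins the 108-nt to the 111-nt exon, so that joining was rare. The 24-nt exon between the 129-nt and 72-nt exons (18:32589354-32589377) had the largest member difference, -0.453, with PSI values of 0.147, 0.200 and 0.277 in the 3-library set, against 0.721 and 0.601 in the 2-library set. It rests on few reads, 3, 9 and 4 inclusion reads with 15, 31 and 9 skipping reads in the 3-library set, against 12 and 14 inclusion reads with 4 and 8 skipping reads in the 2-library set, and its adjusted p was 0.10 in limma. Between the 148-nt and 108-nt exons, the same 24-nt exon ran the other way without overlap, with 0.941, 0.886 and 0.893 in the 3-library set, against 0.623 and 0.845 in the 2-library set (difference 0.172, adjusted p = 0.385 in limma). Skipping reads there numbered 2, 4 and 3 in the 3-library set, against 12 and 3 in the 2-library set. Between the 148-nt and 72-nt exons, this exon was lower in the 3-library set without overlap. It averaged 0.0337 there, against 0.0826 in the 2-library set (adjusted p = 0.494 in limma). The deepest Bin1 event, a 93-nt exon, overlapped between the sets, with 0.437, 0.555 and 0.403 in the 3-library set, against 0.482 and 0.396 in the 2-library set (adjusted p = 0.942 in limma).

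Dnm1 encodes the neuronal dynamin, the GTPase that severs the vesicle neck, and is known to end in alternative tails. Its 37-nt exon (2:32165971-32166007, minus strand) near the end of the gene was measured with each of 3 alternative following exons of 594, 153 and 178 nt. With the 153-nt exon, PSI was 0.748, 0.691 and 0.803 in the 3-library set, against 0.396 and 0.282 in the 2-library set. Inclusion in this context rose in the 3-library set by 0.409 in PSI (1.72 on the logit scale, SE 0.40), with an adjusted p of 0.0348 in limma. With the 594-nt exon, which had most of the reads, PSI was 0.651, 0.651 and 0.649 in the 3-library set, against 0.363 and 0.361 in the 2-library set. Libraries within a set differed by 0.002 at most there, and the difference of 0.289 had an adjusted p of 0.0962 in limma. Its SE of 0.34 on the logit scale comes mostly from the between-library variance common to all events. Inclusion was thus at a higher level in the 3-library set with both of these following exons, without overlap, and passed with the less abundant one. With the 178-nt exon the sets overlapped, at 0.969, 0.946 and 0.823 in the 3-library set, against 0.667 and 0.889 in the 2-library set (adjusted p = 0.522 in limma). Reads were few there, with 1, 2 and 5 skipping reads in the 3-library set, against 4 and 1 in the 2-library set. Inclusion reads numbered 39, 44 and 29 in the 3-library set, against 10 and 10 in the 2-library set. The call with the 153-nt exon was lost without any 1 of the 5 libraries, with adjusted p from limma between 0.0950 and 0.267.

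Inclusion reads of the Dnm1 37-nt exon were also higher in number in the 3-library set with the 594-nt and the 153-nt exon. With the 594-nt exon, inclusion reads numbered 583, 512 and 485 in the 3-library set, against 256 and 169 in the 2-library set, and skipping reads 251, 220 and 210 in the 3-library set, against 361 and 240 in the 2-library set. The inclusion reads did not overlap between the sets and the skipping reads did. With the 153-nt exon, inclusion reads numbered 89, 67 and 61 in the 3-library set, against 36 and 22 in the 2-library set, and skipping reads 24, 24 and 12 in the 3-library set, against 44 and 45 in the 2-library set. The 37-nt length is not divisible by 3, so the reading frame after it depends on whether it is present. A further Dnm1 exon of 83 nt was almost never included, with 1363, 1238 and 1131 skipping reads in the 3-library set, against 1086 and 993 in the 2-library set.

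**Figure D2:**
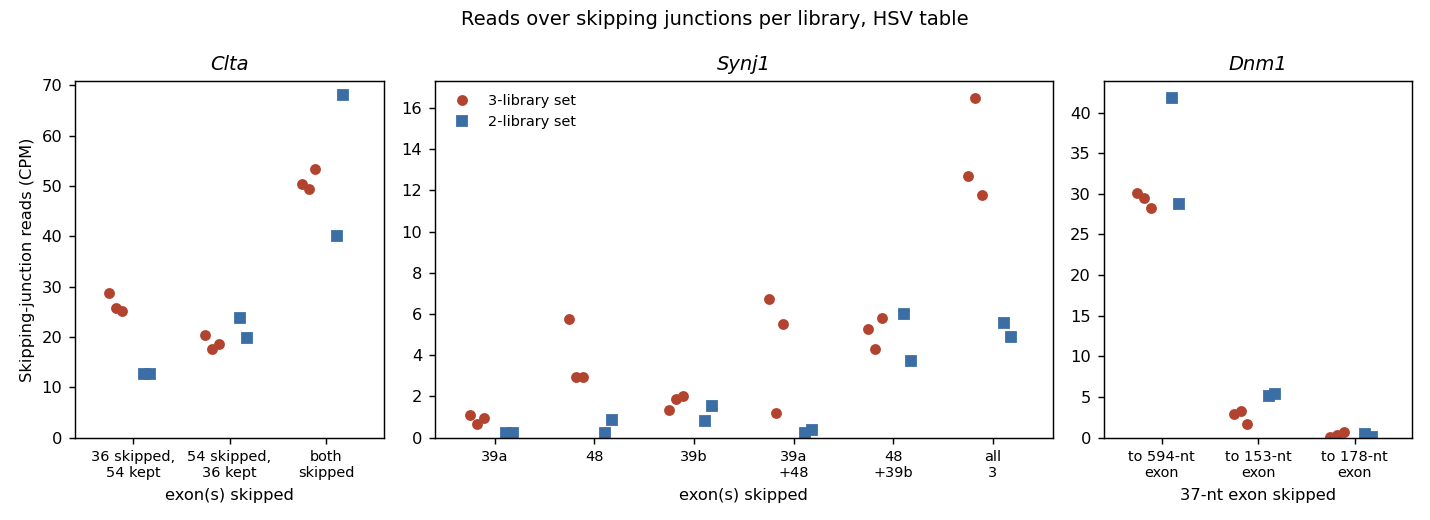
Reads over skipping junctions (CPM of all listed reads in the library) for Clta, Synj1 and Dnm1. Circles are the 3-library set and squares the 2-library set. In Synj1, 39a and 39b are the first and second 39-nt exon and 48 the exon between them. The Synj1 junction past all 3 exons has 106, 123 and 88 reads in the 3-library set, against 48 and 41 in the 2-library set.

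Synj1 encodes synaptojanin 1, a phosphoinositide phosphatase that acts in shedding the coat. A cluster of 3 short exons, 39, 48 and 39 nt long in transcript order, lies between exons of 135 nt and 71 nt, and each length is divisible by 3. The 48-nt exon between the 39-nt exons (16:90948311-90948358, minus strand) had PSI values of 0.754, 0.857 and 0.866 in the 3-library set, against 0.991 and 0.962 in the 2-library set. Its inclusion in the 3-library set fell by 0.151 in PSI (-2.08 on the logit scale, SE 0.50), with an adjusted p of 0.0407 in limma. The skipping junction had 48, 22 and 22 reads in the 3-library set, against 2 and 7 in the 2-library set. Without any 1 of the 5 libraries the call was lost, with adjusted p from limma between 0.0536 and 0.372.

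The other events of the Synj1 cluster did not pass. Read from the 135-nt exon to the second 39-nt exon, the 48-nt exon had PSI values of 0.403, 0.757 and 0.448 in the 3-library set, against 0.928 and 0.916 in the 2-library set (adjusted p = 0.0703 in limma). On the same junction, the first 39-nt exon (16:90949944-90949982) had 0.616, 0.873 and 0.582 in the 3-library set, against 0.971 and 0.946 in the 2-library set (adjusted p = 0.0738 in limma). In both events the second library of the 3-library set lay nearest to the 2-library set, and the sets did not overlap. Their shared skipping junction had 56, 9 and 41 reads in the 3-library set, against 2 and 3 in the 2-library set. Joined to the 71-nt exon, the first 39-nt exon had 0.445, 0.362 and 0.456 in the 3-library set, against 0.686 and 0.635 in the 2-library set (adjusted p = 0.276 in limma). The junction that skips all 3 exons had 2.62 times as many reads in the 3-library set relative to library reads. The junction that keeps the first 39-nt exon and skips the next 2 exons overlapped, with 44, 32 and 43 reads in the 3-library set, against 52 and 31 in the 2-library set. The second 39-nt exon, joined to the first and to the 71-nt exon, had a higher level in the 3-library set without overlap, with 0.671, 0.641 and 0.584, against 0.547 and 0.551 in the 2-library set (adjusted p = 0.783 in limma). Its inclusion reads count the junction between the 39-nt exons, which is the junction that skips the 48-nt exon. That event is thus not separate from the called one. The remaining 5 events of the cluster had PSI differences from -0.110 to -0.027, and none passed.

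Dnajc6 encodes auxilin, the J-domain protein that recruits Hsc70 to uncoat vesicles in neurons. Its 65-nt exon (4:101204603-101204667, plus strand) follows either of 2 alternative exons, of 207 nt and 116 nt. After the 207-nt exon, PSI was 0.490, 0.439 and 0.446 in the 3-library set, against 0.646 and 0.679 in the 2-library set. The sets did not overlap, and the difference of -0.204 had an adjusted p of 0.370 in limma. Skipping reads there numbered 66, 91 and 109 in the 3-library set, against 39 and 39 in the 2-library set, while inclusion reads were 91, 102 and 126 in the 3-library set, against 102 and 118 in the 2-library set. After the 116-nt exon the sets overlapped, with 0.791, 0.614 and 0.753 in the 3-library set, against 0.740 and 0.979 in the 2-library set (adjusted p = 0.670 in limma).

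Beyond the 17 events on which the account of each gene turns, the other 29 tested member events, some of them named above, did not pass. Their lowest adjusted p was 0.216 in limma, and their PSI differences ran from -0.140 to 0.172.

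**Figure D3:**
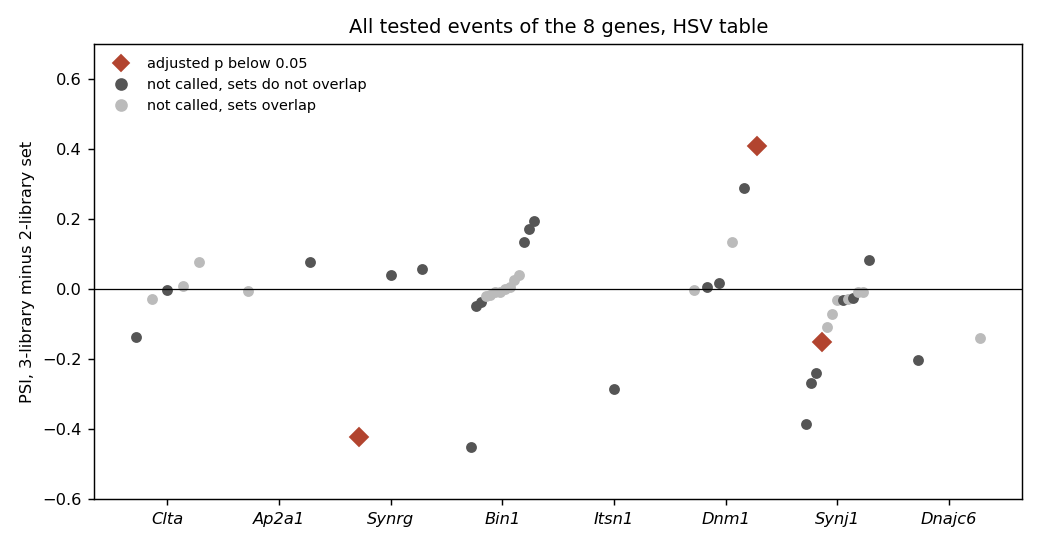
Difference in PSI, 3-library minus 2-library set, for the 46 tested events of the 8 genes. Diamonds passed at an adjusted p below 0.05, dark circles did not pass and have sets that do not overlap, and light circles have sets that overlap. The 3 diamonds are at -0.424 in Synrg, 0.409 in Dnm1 and -0.151 in Synj1.

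Coverage, the reads of each gene's deepest event scaled to library size (CPM), stood in for expression, although it sees only reads over listed events. Of the 8 genes, 2 were higher in the 3-library set and none lower, against 22.7% of 8201 genes that passed, 13.2% higher and 9.47% lower. Dnajc6 had 142, 149 and 157 CPM in the 3-library set, against 93.8 and 81.3 CPM in the 2-library set. Its coverage rose 1.71-fold (0.77 on the log2 scale, SE 0.12) with an adjusted p of 0.000370 in limma, and passed without each library in turn. Synj1 had 191, 180 and 193 CPM in the 3-library set, against 160 and 141 CPM in the 2-library set. Its coverage rose 1.25-fold (0.32 on the log2 scale, SE 0.10) with an adjusted p of 0.0432 in limma. Synj1 passed without replicate 1 of the 2-library set (adjusted p = 0.0163 in limma) and did not without any other single library (adjusted p up to 0.179 in limma).

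The 6 other genes did not pass. Clta had 602, 561 and 588 CPM in the 3-library set, against 611 and 622 CPM in the 2-library set, a log2 difference of -0.08 (SE 0.08). Ap2a1 had 322, 343 and 344 CPM in the 3-library set, against 461 and 366 CPM in the 2-library set. Its log2 difference of -0.29 (SE 0.10) had an adjusted p of 0.0640 in limma, and it passed without replicate 2 of the 2-library set (adjusted p = 0.000710 in limma). Dnm1 had 1159, 1131 and 1052 CPM in the 3-library set, against 1093 and 868 CPM in the 2-library set. Its sets overlapped and its log2 difference of 0.19 (SE 0.10) did not pass, although it did without replicate 1 of the 2-library set (adjusted p = 0.00133 in limma). Bin1, Itsn1 and Synrg had log2 differences of 0.20, 0.08 and -0.04, with SE values of 0.09, 0.15 and 0.10. Synrg coverage thus differed by less than its error while the inclusion of its 36-nt exon differed by 0.424 in PSI.

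**Figure D4:**
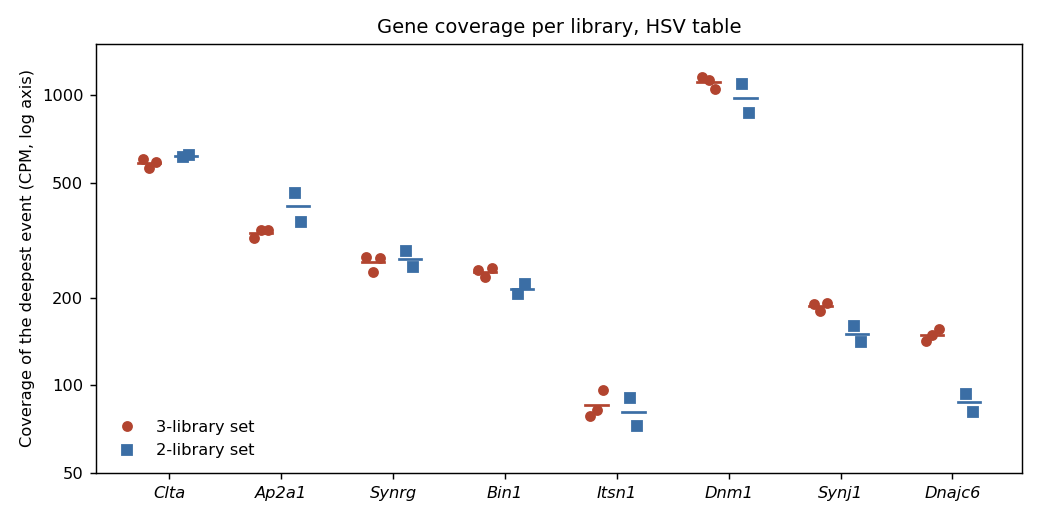
Coverage of the deepest event of each gene in CPM, on a log axis, per library. Circles are the 3-library set, squares the 2-library set, and lines are means. The 3 Dnajc6 circles, at 142, 149 and 157 CPM, all lie above its squares at 93.8 and 81.3 CPM.

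The cell type markers and interferon genes also differed between the HSV sets. All 12 measured genes of the 16 interferon response genes were higher in the 3-library set, with sums of 3405, 3006 and 3354 CPM, against 85.4 and 194 CPM in the 2-library set. Of 12 medium spiny neuron markers 9 were measured and 8 of these fell, with sums of 3091, 3186 and 2986 CPM in the 3-library set, against 9178 and 7329 CPM in the 2-library set. Drd1 and Adora2a were among those without a measured event, and Drd2, which marks one class of these neurons, had 65.5, 92.3 and 71.8 CPM in the 3-library set, against 221 and 196 CPM in the 2-library set. Of 7 measured neuron markers 4 rose and 3 fell, with sums of 10884, 10056 and 10896 CPM in the 3-library set, against 10155 and 8350 CPM in the 2-library set.

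The glial markers that passed all ran the other way from the medium spiny neuron markers. Summed oligodendrocyte markers overlapped between the sets, and summed astrocyte markers were close. Of 8 measured oligodendrocyte markers 6 rose, with sums of 10575, 8123 and 10403 CPM in the 3-library set, against 6228 and 8392 CPM in the 2-library set. Of 8 measured microglia markers 5 rose, with sums of 3229, 3192 and 3160 CPM in the 3-library set, against 1157 and 2512 CPM in the 2-library set. Of 6 measured astrocyte markers 2 rose, with sums between 3843 and 3886 CPM in the 3-library set, against 3622 and 3788 CPM in the 2-library set. No measured marker was at 0 and no endothelial or mural marker was measured. In bulk tissue, fewer cells of a type and less RNA per cell cannot be told apart, and the part of these differences in the inclusion and coverage results was not tested.

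Of 67 other genes of clathrin-mediated endocytosis and of other clathrin adaptors, AP-1 among them, 47 had a tested event, 130 events in all. Snap91, which encodes the clathrin assembly protein AP180, was the only gene of these with a called event, against 0.405% of all tested genes, while 3 of the 8 member genes had one. Its 108-nt exon (9:86688192-86688299) had PSI values of 0.801, 0.918 and 0.823 in the 3-library set, against 0.975 and 0.970 in the 2-library set. Inclusion fell by 0.125 in PSI with an adjusted p of 0.0461 in limma, and did not pass without any 1 of the 5 libraries (adjusted p from 0.0724 to 0.297 in limma). With weights from reads alone, 8 of the 47 genes and 7 of the 8 member genes had a called event, against 5.82% of all tested genes. These shares of genes depend on the number of events per gene. The 8 member genes had 46 tested events, the 47 genes 130 and all 4194 tested genes 7754. A member gene thus had more events that could be called. The median absolute PSI difference of the 130 events was 0.0289. Coverage of 60 of these genes was measured, and 4 were higher and 6 lower in the 3-library set, with a median log2 difference of -0.01.

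In the dCas9-SET2 table the member events had far fewer reads. Runs held between 56946 and 84870 reads over all events in the second set, against 79799 to 106251 in the first set, and the median event had 4.80 reads per run. The runs at positions 4 and 8 were identical in all 5608 events in both sets and were counted once, which left 15 distinct runs per set. Reads were summed per set, and 95% Wilson intervals cover counting error only. At an adjusted p below 0.05 in the authors' deposited table, 3 of the 20 member events differed, 2 higher and 1 lower in the second set, against 4.96% of 5287 events that passed and 2.23% that were higher. The table lists all 16 positions, and which of them entered that adjusted p is not known here. The median absolute difference of summed PSI was 0.0324 in the member events and 0.0503 in all events.

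The Ap2a1 66-nt exon (7:44903462-44903527 in the dCas9-SET2 table's coordinates) had a summed PSI of 0.819 (0.738 to 0.879) in the second set, against 0.729 (0.649 to 0.797) in the first set. The authors' deposited table gives it a difference of 0.151 and an adjusted p of 0.0163. The Dnajc6 65-nt exon after the 116-nt exon (4:101531998-101532062) had a summed PSI of 0.960 (0.903 to 0.984) in the second set, against 0.885 (0.829 to 0.925) in the first set. The authors' deposited table gives a difference of 0.125 and an adjusted p of 0.00140. Both exons were higher in the second set, with intervals that overlapped. Only 4 skipping reads beside 160 inclusion reads in the second set, against 19 beside 243 in the first set, stand behind the Dnajc6 values.

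The Synrg 234-nt exon was lower in the second set in the authors' deposited table, with a difference of -0.176 and an adjusted p of 0.0292. Its summed PSI was 0.197 (0.109 to 0.329) in the second set, against 0.188 (0.124 to 0.274) in the first set, so the summed reads did not run in that direction. It had 14 inclusion and 17 skipping reads in the second set, against 28 and 36 in the first set. The mean over runs with reads was 0.174 over 11 runs in the second set, against 0.321 over 15 runs in the first set. Such an opposite sign between summed reads and the authors' deposited table occurred in 5 of the 20 member events, called or not. Among called events it occurred in 32 of 262 over the table, and among the 3 called member events only in this exon. The share over all events, called or not, was not counted.

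The 17 other events had an adjusted p of 0.108 or more in the authors' deposited table. All 20 events had a counterpart in the HSV table by gene, exon length and distance to the neighbouring exons. The Synrg 36-nt exon had a summed PSI of 0.626 (0.415 to 0.799) in the second set, against 0.885 (0.742 to 0.954) in the first set, from 23 and 46 reads. The intervals overlapped, and its adjusted p was 0.574 in the authors' deposited table. The Dnm1 37-nt exon with the longest following exon stood at 0.476 (0.431 to 0.522) in the second set, against 0.477 (0.438 to 0.516) in the first set. The Itsn1 microexon stood at 0.459 (0.360 to 0.562) in the second set, against 0.486 (0.387 to 0.586) in the first set. The Clta 36-nt exon after the 54-nt exon stood at 0.803 (0.764 to 0.837) in the second set, against 0.829 (0.792 to 0.860) in the first set. These last 3 intervals overlapped over most of their width.

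Of the 20 member events, 1 had intervals that did not overlap, against 3.01% of all 5608 events. The Clta 36-nt exon read without the 54-nt exon (4:44031400-44031435) had a summed PSI of 0.243 (0.214 to 0.275) in the second set, against 0.178 (0.156 to 0.203) in the first set, and an adjusted p of 0.169 in the authors' deposited table. Summed PSI was higher in the second set in 15 of the 20 events and lower in 5, against 51.2% higher and 48.6% lower over all events. Events of one gene share reads and runs repeat the same samples, so this count is not one of independent observations.

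**Figure D5:**
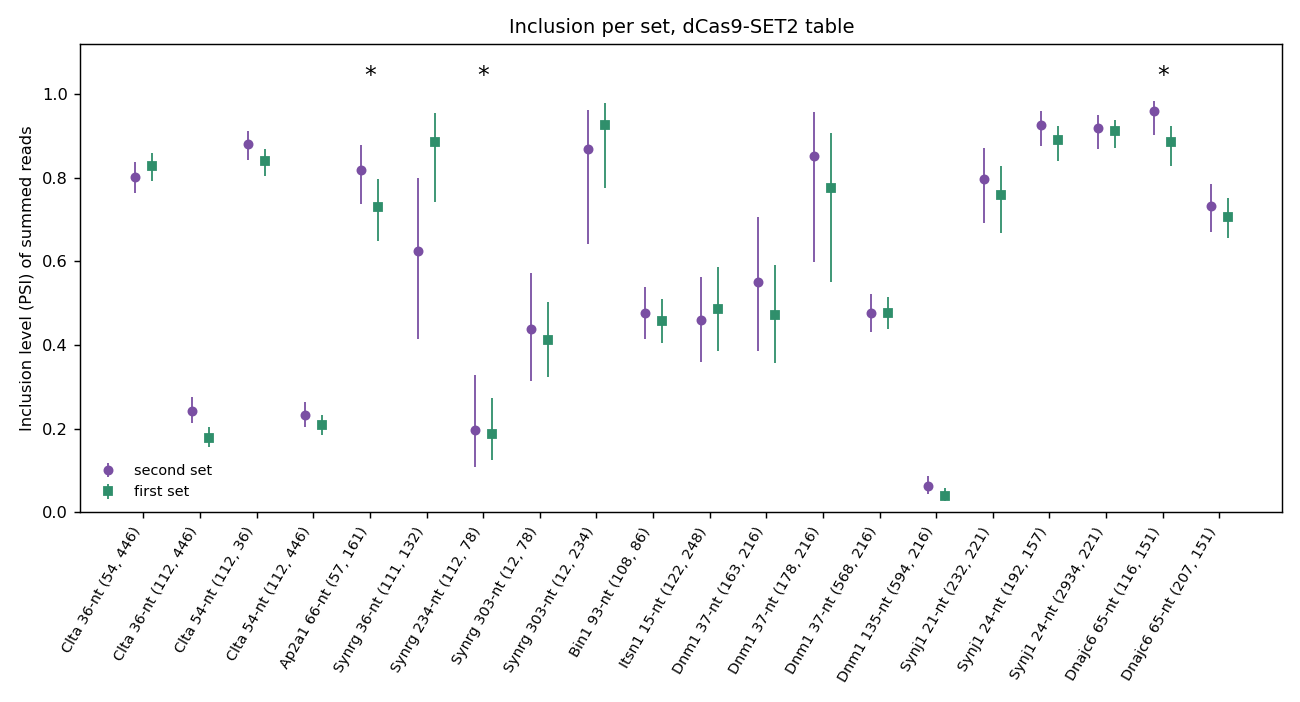
Summed inclusion level (PSI) of the 20 member events in the dCas9-SET2 table, with 95% Wilson intervals as bars. Circles are the second set and squares the first set, numbers in parentheses are the lengths of the neighbouring exons, and asterisks mark an adjusted p below 0.05 in the authors' deposited table. The bars overlap in 19 of the 20 events.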

How the data were processed

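Exon skipping events of mouse nucleus accumbens RNA were analysed from 2 tables. The authors deposited inclusion and skipping read counts joined by commas in a cell, with inclusion levels as fractions. They also deposited p-values with an FDR or adjusted p, and a difference score. The tools STAR 2.4.1d and Bowtie2, and both mm9 and mm10 as builds, are named without a role, per the submitters' processing notes. The event caller and the build of each table are not given in the sources used here, so coordinates are printed as each table has them. No column names a sample (5 columns of libraries in the HSV table and 32 of runs in the dCas9-SET2 table), so sets were compared as listed. The authors' deposited difference score in the HSV table runs the other way from the differences printed here.

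PSI was recomputed and matched within 0.001 in 100% of HSV values. Inclusion was tested with limma 3.58.1 (R 4.3.3) on the logit of inclusion with 0.5 added to each count. Weights were the inverse of the binomial variance plus a between-library variance of 0.139, common to all events, since weights from reads alone give deep events a spread near 0. P-values were adjusted by Benjamini-Hochberg over all 7754 tested events. Coverage was tested with limma on log2 CPM after TMM scaling. For the dCas9-SET2 table no test was run. On simulated data the fit recovered the direction of nearly all events given the largest change, and direction was not examined for smaller changes. It estimated the between-library variance too low and false calls exceeded the nominal share.

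The members and lists were chosen with earlier results of these data known. Values per library are given for called events and for the deepest tested event of a member without one, by rule, and for further events chosen after their values were seen.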

Additional observations from a re-analysis of the deposited data

How the results depend on the processing

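Of 46 member events, 3 passed. The count was 13 with weights from reads alone, 0 with no weights (790 of all events had an unadjusted p below 0.05 there), 6 with the spread trended on read depth, 6 with 1 added to each count, 10 with no filter, 5 with at least 50 reads per library and 16 by the authors' deposited FDR. It was 1 with the between-library term from the median event, an alternative chosen after seeing the data, and 1 to 1 with any library left out. Over all events, 19 passed, against 286, 0, 60, 74, 247, 42, 974 and 9 in the same order, and 1 to 10 with a library left out. The causes were not tested. The Clta 54-nt exon alone ran from -0.01 to 0.67 on the logit scale with a library left out, below 0 without replicate 2 of the 2-library set, and the deepest Bin1 event from -0.07 to 0.28, below 0 without that replicate and without replicate 2 of the 3-library set.

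Member coverage gave 2 genes, but 1 with the sum over all events, 1 with no filter, and 1 to 3 with a library left out. Log2 coverage of Synrg ran from -0.13 to 0.05 with a library left out, and turned to 0.05 without replicate 1 of the 2-library set and 0.02 without replicate 2 of the 3-library set. That of Itsn1 ran from -0.08 to 0.24, and turned to -0.08 without replicate 2 of the 2-library set and to -0.01 without replicate 3 of the 3-library set. In the dCas9-SET2 table, 1 member event and 30 events in all had a deposited adjusted p below 0.01, and 135 of the 262 called events had at least 5 reads per run in each set. No paired analysis was possible because the columns carry no replicate numbers.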
